A study of Mus musculus with 9 samples.

Results

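The transcripts of 4 protease genes of neutrophils were followed in the blood of injured and control mice: Mmp8, the neutrophil collagenase, Mmp9, the gelatinase B, Mmp25, a membrane-bound matrix metalloproteinase of leukocytes, and Adam8, a membrane-bound protease of the disintegrin and metalloproteinase family. The genes were chosen by name, with earlier results of these data known, and each was represented by 1 probe set, the one with the highest average signal among those that carried exactly 1 gene symbol. Of the 4 genes, 3 had such a probe set and were measured, among 18194 genes in all. Mmp25 had none, neither by symbol nor by gene identifier nor by transcript accession, and was not analysed here. The highest mean decided only between the 2 probe sets of Mmp9, since Mmp8 and Adam8 had 1 each, and it used no difference between groups.

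Blood was taken by cardiac puncture from C57BL/6 mice aged 8 to 9 weeks, with 3 animals and 3 arrays in each group. PT+HS mice received a polytrauma, that is a brain injury, a closed femoral fracture with damage to the soft tissue and a blunt chest trauma on both sides. In these mice hemorrhage was started 1 h later, kept for 60 min with the arterial pressure near 30 mmHg (within 5 mmHg) and followed by balanced electrolyte solution at 4 times the drawn volume over 30 min, with norepinephrine as needed. PT mice received the polytrauma without the hemorrhage, and both injured groups were sampled 4 h after trauma. Ctrl mice had no intervention and were sampled at the start of anesthesia, whereas the injured mice had hours of anesthesia, buprenorphine and, by the methods, catheters. Trauma and these procedures cannot be told apart in a comparison with Ctrl. The whole blood was lysed, so that the RNA of all blood cells was measured, and in such bulk samples a change in the number of neutrophils and a change in the RNA per neutrophil cannot be told apart. The array of PT replicate 2 stood apart, with correlations of 0.912 to 0.949 with the other arrays, against 0.961 or more among those, and the calls of the proteases that changed without it are given with and without it.

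Neutrophils store proteases in granules that are filled one type after another while the cell matures in the bone marrow. Serine proteases such as elastase go into the primary granules, collagenase into the secondary or specific granules, and gelatinase into the last granules to form, which are released more readily. MMP-8 cuts fibrillar collagen and MMP-9 cuts denatured collagen and basement membrane, both after removal of a propeptide that blocks the zinc at the active site, and ADAM8 sheds adhesion molecules and receptors from the leukocyte surface.

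Mmp8 lies on the plus strand of chromosome 9 at chr9:7558429-7568486, Adam8 on the minus strand of chromosome 7 at chr7:139978932-139995207 and Mmp9 on chromosome 2 at chr2:164940326-164955850 (RefSeq, GRCm38.p6). The upstream sequences of Mmp8 and Adam8 are shown because these were the 2 genes that were higher in all injured animals. No upstream sequence was found for Mmp9, so that no measured member without such a shift could be set beside them. They were searched on both strands, in the 250 bases before the start, for the letters of a C/EBP site (TTNNGNAA, read on the other strand as TTNCNNAA), a PU.1 site (GAGGAA), an AP-1 site (TGANTCA), an NF-kB site (GGG and CC around any 5 bases) and a TATA box (TATAAA). In the Mmp8 sequence, chr9:7558179-7558428, capitals mark the 2 C/EBP matches and the 1 PU.1 match, and the other motifs had no match. Adam8 had 1 C/EBP match, which is shown with the bases around it at chr7:139992763-139992792 on the minus strand, and no match to the other motifs.
Mmp8, 250 bases before the start: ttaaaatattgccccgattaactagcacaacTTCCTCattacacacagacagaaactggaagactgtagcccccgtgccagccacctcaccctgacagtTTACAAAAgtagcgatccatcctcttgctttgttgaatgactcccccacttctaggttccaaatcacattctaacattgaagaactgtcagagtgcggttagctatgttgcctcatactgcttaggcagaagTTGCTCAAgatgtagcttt
Adam8, C/EBP match: gaactgcagagTTGCTCAAattggtctgtt
Both genes held the same letters TTGCTCAA, Mmp8 at 19 and Adam8 at 219 bases before the start. In 27025 promoters of this length, 36.9% held the C/EBP letters, 23.1% the PU.1, 6.87% the AP-1, 45.4% the NF-kB and 13% the TATA letters, and 0.836% exactly TTGCTCAA on either strand. The listed start of Adam8 lies inside the annotated span of the gene. The letters TTGCTCAA were counted because both genes held them, so that their share over promoters is not a test. These matches describe the letters and are not evidence of binding.

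Mmp8 was the gene with the largest positive difference of all 18194 in each comparison of injured with control blood. On the log2 scale of the robust multiarray average, which sums up the probes of a probe set, it had 10.58, 9.51 and 10.63 in the PT+HS mice, 10.52, 8.75 and 9.75 in the PT mice and 6.06, 5.00 and 5.40 in the Ctrl mice. Every injured animal lay above every Ctrl animal, and the gap between the lowest injured and the highest Ctrl mouse was 2.69 on the log2 scale, or 6.43-fold. Mmp8 averaged 10.24 ± 0.63 in PT+HS, 9.67 ± 0.89 in PT and 5.49 ± 0.54 in Ctrl (log2 mean ± SD, n = 3 each).

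Against Ctrl, Mmp8 rose in PT+HS by 4.75 on the log2 scale (standard error 0.47, 27.0-fold, 95% interval 13.1 to 55.8, adjusted p = 0.0306 from limma). It was higher in PT by 4.18 (standard error 0.47, 18.2-fold, 95% interval 8.79 to 37.6, adjusted p = 0.0748), and without PT replicate 2 by 4.65 (adjusted p = 0.00396). Without that array 47 of all genes had an adjusted p under 0.05 between PT and Ctrl. For the mean of both injured groups against Ctrl, which uses all 9 arrays, the log2 difference was 4.47 (standard error 0.41, 22.2-fold, adjusted p = 0.0146). Calls were counted at an adjusted p under 0.05 over all genes and, separately, at the thresholds of the study, which are 1.5-fold and p under 0.05 without adjustment. At an adjusted p under 0.05, 0.0055% of all genes were called as higher in PT+HS, that is Mmp8 alone, and 0.011% in the injured animals together, Mmp8 and Il1r2. Between PT and Ctrl it was 0% of genes by limma, where 5.82% had an unadjusted p under 0.05. All PT+HS values lay above all Ctrl values for 6.55% of all genes and all PT values for 4.32%. The 3 comparisons share the Ctrl arrays and are not independent. Without Ctrl replicate 1, 2 or 3 or PT+HS replicate 1 or 3, the adjusted p of Mmp8 between injured and Ctrl animals was 0.0570, 0.237, 0.162, 0.0941 and 0.0881, in this order, at log2 differences of 4.22 to 4.76. Between PT+HS and Ctrl it was 0.0736, 0.339, 0.232, 0.359 and 0.344 without the same arrays and 0.0564 without PT replicate 3.

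Adam8 was also higher in every injured animal than in every Ctrl animal, by a smaller amount. It had 7.02, 6.77 and 8.21 in the PT+HS mice, 7.36, 6.06 and 7.54 in the PT mice and 5.09, 5.20 and 4.82 in the Ctrl mice on the log2 scale. The gap between the lowest injured and the highest Ctrl mouse was 0.86 on the log2 scale, or 1.82-fold. Over all genes, 1.52% had every injured animal above every Ctrl animal. The log2 difference from Ctrl was 2.30 in PT+HS (standard error 0.44, 4.91-fold, 95% interval 2.49 to 9.70, adjusted p = 0.251 from limma) and 1.95 in PT (3.86-fold, 95% interval 1.95 to 7.62, adjusted p = 0.395). For both injured groups together it was 2.12 (standard error 0.38, 4.35-fold, adjusted p = 0.132). Adam8 thus passed the study's thresholds in each comparison with Ctrl, as 1.99% of all genes did as higher in PT+HS, 1.41% in PT and 1.65% in the injured animals together, and missed the adjusted threshold. Without PT replicate 2 the adjusted p of Adam8 was 0.0228 in PT+HS, 0.0408 in PT and 0.00839 for both together. In that fit 53, 47 and 92 of all 18194 genes were called at an adjusted p under 0.05, beside 1, 0 and 2 with all arrays.

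**Figure D1:**
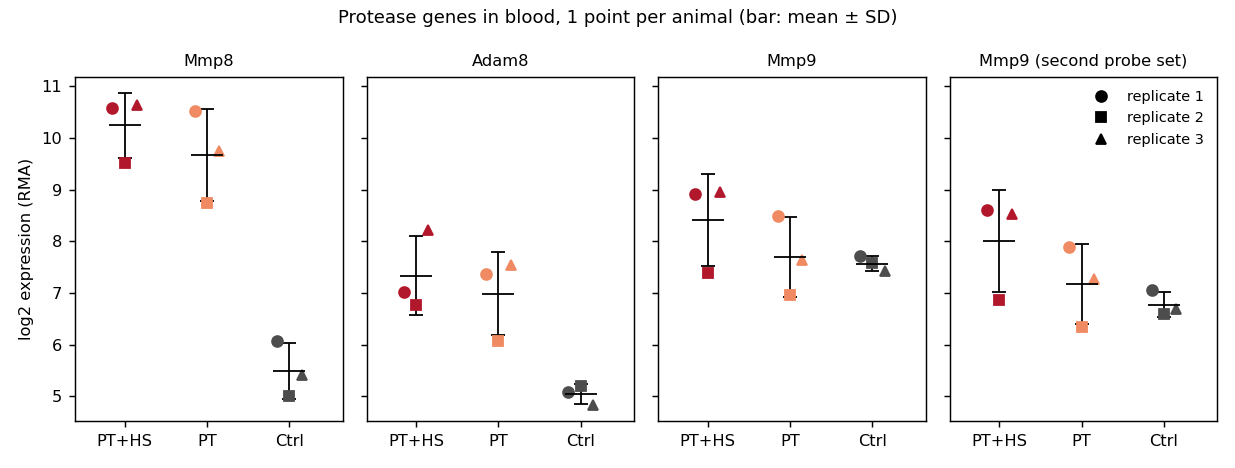
Log2 expression of Mmp8, Adam8 and both probe sets of Mmp9 in each animal, with groups on the horizontal axis, 1 symbol per replicate number and bars for mean ± SD (n = 3). All 6 injured animals lie above the Ctrl animals for Mmp8 and Adam8, while for the chosen probe set of Mmp9 3 lie above, 2 below and 1 within the Ctrl range.

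Mmp9 did not separate injured from control blood. It had 8.90, 7.39 and 8.96 in the PT+HS mice, 8.50, 6.96 and 7.63 in the PT mice and 7.71, 7.58 and 7.41 in the Ctrl mice. Of the 6 injured animals 3 lay above the highest Ctrl mouse, 2 below the lowest and 1 between them. The Ctrl mice were close together, with an SD of 0.15, while the injured animals had an SD of 0.84 and spanned 3.99-fold.

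The log2 difference of Mmp9 from Ctrl was 0.85 in PT+HS (standard error 0.46, 1.80-fold, 95% interval 0.885 to 3.67, adjusted p = 0.999 from limma) and 0.13 in PT (1.10-fold, 95% interval 0.538 to 2.23, adjusted p = 0.999). For both injured groups together it was 0.49 (standard error 0.40, 1.40-fold, 95% interval 0.759 to 2.60). Intervals of this width hold a change of more than 2-fold in either injured group as well as none, so that a lack of change is not shown. Without PT replicate 1, the highest PT animal, the difference of PT from Ctrl was -0.27.

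The second probe set of Mmp9, which the choice by mean level left out, shifted more with injury. It had 8.61, 6.86 and 8.52 in PT+HS, 7.89, 6.34 and 7.27 in PT and 7.05, 6.58 and 6.68 in Ctrl. By this probe set 4 of the 6 injured animals lay above the Ctrl range, 1 below and 1 within it. Tested over all 34958 probe sets with 1 symbol, its log2 difference from Ctrl was 1.22 in PT+HS (standard error 0.49, unadjusted p = 0.0339 and adjusted p = 0.982 from limma) and 0.40 in PT (adjusted p = 1.0). It thus passed the study's thresholds in PT+HS, which the chosen probe set did not. For both injured groups together its difference from Ctrl was 0.81 (standard error 0.43, unadjusted p = 0.0891 and adjusted p = 0.935 from limma), beside 0.49 for the chosen probe set. The chosen minus the second probe set was 0.30 to 0.62 in the injured and 0.65 to 0.99 in the Ctrl animals, without overlap.

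**Figure D2:**
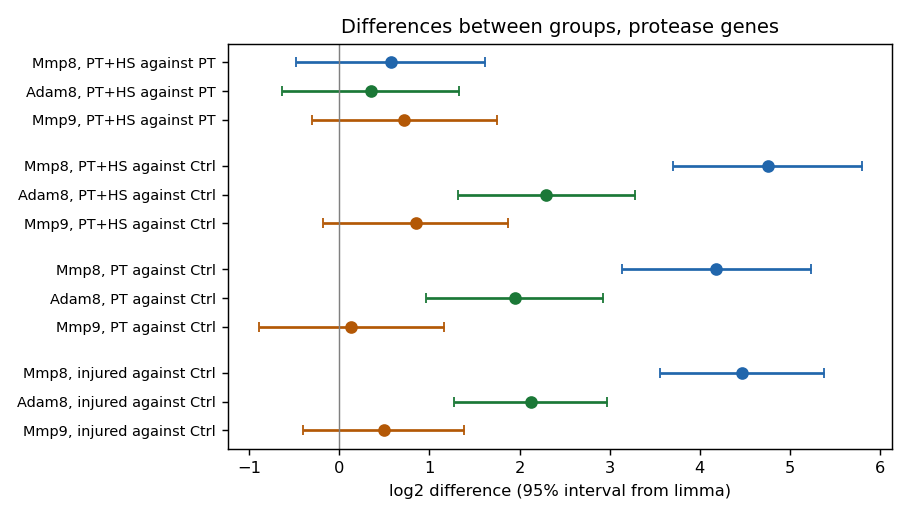
Log2 difference of each gene in 4 comparisons (points) with the 95% interval from limma (bars), 0 being no difference. The intervals of Mmp8 and Adam8 lie above 0 in each comparison with Ctrl, and all 3 intervals between PT+HS and PT include 0.

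Between PT+HS and PT all 3 genes had positive differences, each smaller than the spread between animals. The log2 difference was 0.57 for Mmp8 (standard error 0.47, 1.49-fold, 95% interval 0.719 to 3.07), 0.72 for Mmp9 (standard error 0.46, 1.65-fold, 95% interval 0.808 to 3.35) and 0.35 for Adam8 (standard error 0.44, 1.27-fold, 95% interval 0.645 to 2.52). The adjusted p was 1.0 for each from limma, the unadjusted p was 0.252, 0.149 and 0.445, and the groups overlapped for each gene, whereas 3.61% of all genes had every PT+HS value above every PT value. At the study's thresholds 0 of the 3 passed, where 0.726% of all genes were called as higher and 0.396% as lower. By limma 0% of all genes had an adjusted p under 0.05 and 2.87% an unadjusted p under 0.05, and the methods' t-test called 0 genes after adjustment. Past 1.5-fold and an unadjusted p under 0.05, the methods' t-test put 0.418% of genes between PT+HS and PT, 2.98% between PT+HS and Ctrl, 1.61% between PT and Ctrl and 2.37% between injured and Ctrl. The differences moved with single animals. That of Mmp9 was 1.23 without PT+HS replicate 2 (unadjusted p = 0.0109 from limma) and 1.12 without PT replicate 1 (unadjusted p = 0.0362), both past the study's thresholds, and 0.35 without PT replicate 2. For Adam8 leaving out PT replicate 2 gave a difference of -0.11 and leaving out PT+HS replicate 3 one of -0.09, and for Mmp8 the difference ran from 0.11 without PT replicate 2 to 1.0 if PT replicate 1 was left out.

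Among the injured animals Mmp8 and Mmp9 moved together, and Adam8 followed them in part. Replicate 2 had the lowest value of all 3 genes in PT+HS and in PT. The highest was replicate 3 for all 3 genes in PT+HS, whereas in PT it was replicate 1 for Mmp8 and Mmp9 and replicate 3 for Adam8. The label numbers are not known to mark a shared day or litter. Mmp8 varied among the 6 injured animals with an SD of 0.76 and Mmp9 with an SD of 0.84, but the within-array difference of Mmp8 minus Mmp9 varied with an SD of only 0.21. It was 1.68, 2.13 and 1.67 in PT+HS and 2.02, 1.78 and 2.11 in PT, against -1.65, -2.58 and -2.01 in Ctrl. The 6 injured animals were thus more alike in this difference than in the level of either gene. The same held beside the neutrophil markers described below. Minus the mean of these markers, Mmp8 had an SD of 0.28 and Mmp9 an SD of 0.39 among the injured animals. Adam8 followed Mmp8 less closely, with a difference of Mmp8 minus Adam8 of 2.21 to 3.56 in the injured and -0.20 to 0.97 in the Ctrl animals. Mmp9 minus Adam8 was 0.10 to 1.88 in the injured animals, with an SD of 0.59 beside 0.73 for Adam8 itself, and 2.38 to 2.62 in the Ctrl animals.

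**Figure D3:**
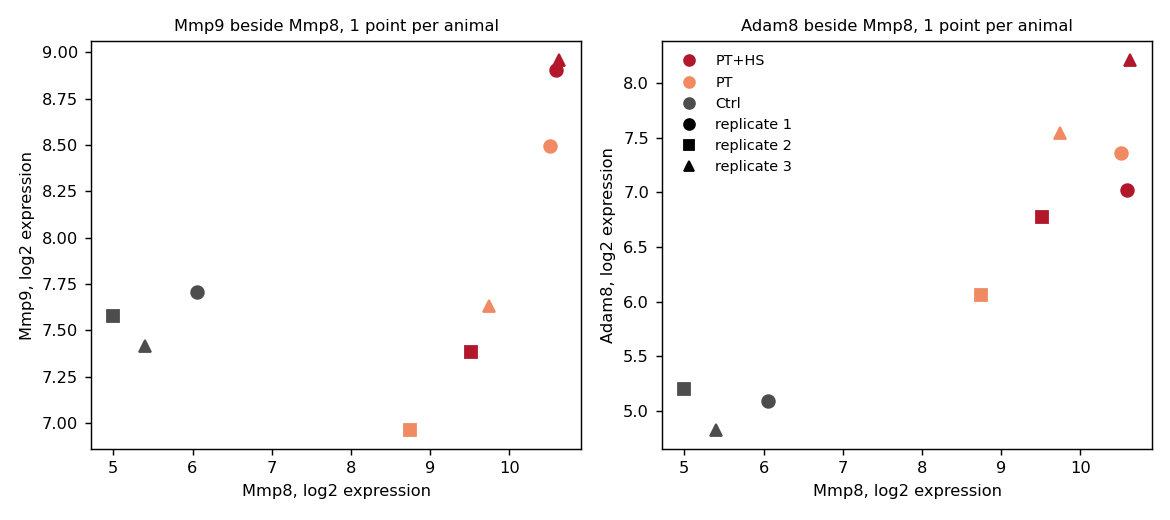
Log2 expression of Mmp9 (left) and Adam8 (right) against that of Mmp8, 1 point per animal, with colors for groups and symbols for replicate numbers. The injured animals stand apart from the Ctrl animals along the axis of Mmp8, and among them Mmp9 is lowest in PT replicate 2 and highest in PT+HS replicate 3, as Mmp8 is.

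The genes changed by unequal amounts. The within-array difference, in which a scaling of the array cancels, shifted between the 6 injured and the 3 Ctrl animals by 3.98 for Mmp8 minus Mmp9, by 2.35 for Mmp8 minus Adam8 and by -1.63 for Mmp9 minus Adam8. With the chosen probe set of Mmp9, each of the 3 pairs had a two-sided p of 0.0238 in the exact permutation test. This is the smallest that 6 against 3 animals allow and was the same after Benjamini-Hochberg adjustment over the pairs. In each pair the 6 injured animals lay on one side of the 3 Ctrl animals. Mmp8 minus the second probe set of Mmp9 also kept them apart, but this probe set minus Adam8 did not. PT+HS replicate 1 had 8.61 for this probe set and 7.02 for Adam8, and Ctrl replicate 2 had 6.58 and 5.20. The difference was thus larger in that injured animal than in that Ctrl animal. With the mean of both probe sets the exact p was 0.0238 for each pair. The pairs share genes and arrays, and the genes were chosen with earlier results known. Between PT+HS and PT the same within-array differences were -0.15, 0.22 and 0.37, and 3 against 3 animals cannot give a p under 0.10.

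Markers of neutrophils were higher in injured blood as well. Mmp8 shifted by more and Mmp9 by less than any single measured marker, while Adam8 lay within the range of the markers. Of the 10 markers listed, 8 were measured, without Ly6g and Retnlg, and 8 of 8 passed the study's thresholds as higher in the injured animals than in Ctrl, where 1.65% of all genes did, with a median log2 difference of 1.31 beside -0.01 over all genes. Their mean level was 10.10, 9.27 and 10.11 in PT+HS, 9.94, 8.89 and 9.66 in PT and 8.50, 8.23 and 7.91 in Ctrl. Like the proteases, the markers were lowest in replicate 2 of PT+HS and of PT. Hdc, which makes histamine, was higher by 2.31 (standard error 0.33), the lectin Clec4d by 1.89 (standard error 0.33), the chemokine receptor Cxcr2 by 1.73 (standard error 0.32) and Trem1, an amplifying receptor, by 1.24 (standard error 0.28). At an adjusted p under 0.05, 0 of the 8 were called by limma, and 8 of 8 had an unadjusted p under 0.05, as 5.86% of all genes did.

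Relative to the mean of these markers on the same array, Mmp8 and Adam8 were higher in the injured animals and the chosen probe set of Mmp9 was lower. The single markers differed from Ctrl by 0.87 to 2.31, and Adam8, at 2.12, lay within this range, so that its shift from their mean does not set it apart from them. Mmp8 minus the markers was 0.49, 0.25 and 0.51 in PT+HS and 0.58, -0.14 and 0.09 in PT, against -2.44, -3.23 and -2.51 in Ctrl, a shift of 3.02. For Adam8 the values were -3.07, -2.50 and -1.90 in PT+HS and -2.58, -2.83 and -2.12 in PT, against -3.41, -3.03 and -3.09 in Ctrl, a shift of 0.68. For Mmp9 they were -1.19, -1.88 and -1.15 in PT+HS and -1.44, -1.92 and -2.03 in PT, against -0.79, -0.65 and -0.50 in Ctrl, a shift of -0.96. For Mmp8 and Mmp9 the injured and Ctrl animals did not overlap (two-sided p = 0.0238 for both, exact permutation test, 6 against 3), and for Adam8 they did, in PT+HS replicate 1 (p = 0.0476). Over the 3 tests, with the chosen probe set of Mmp9, the adjusted values were 0.0357 for Mmp8, 0.0357 for Mmp9 and 0.0476 for Adam8. With 1 array left out they ran from 0.0357 to 0.143. Each gene stayed under 0.05 in 1 of these 9 runs, the one without PT+HS replicate 1. Fewer animals raise the smallest possible p, and the adjustment over the 3 genes adds to it. Without PT replicate 2, Mmp8 and Mmp9 had p = 0.0357 in the exact test and 0.0536 after adjustment.

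**Figure D4:**
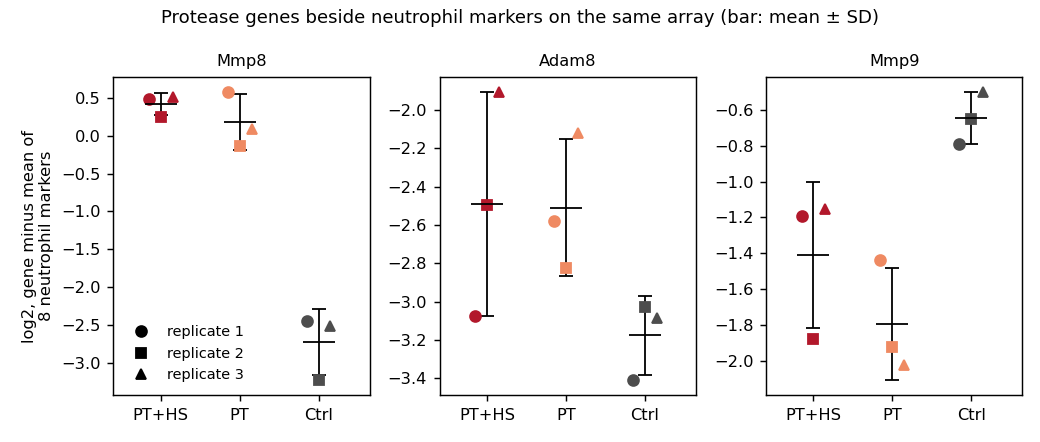
Log2 expression of each gene minus the mean of 8 neutrophil markers on the same array, by group, with 1 symbol per replicate number and bars for mean ± SD (n = 3), on separate vertical axes. Relative to the markers, Mmp8 shifts by 3.02 and Adam8 by 0.68 upward in the injured animals and the chosen probe set of Mmp9 by 0.96 downward.

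Markers of other blood cells moved with the groups too. All 4 measured B-cell markers passed the study's thresholds as lower in the injured animals. Of all genes, 1.65% passed between injured and Ctrl animals as higher and 1.6% as lower. The mean level of the B-cell markers was 6.24 to 8.26 in the injured animals against 8.33 to 9.23 in Ctrl. That of 5 T-cell markers was 6.78 to 8.50 against 7.25 to 7.86. The 4 measured markers of natural killer cells had a mean level of 4.78 to 5.86 in the injured animals against 6.10 to 6.18 in Ctrl, without overlap, and 2 of the 4 were past the thresholds as lower. All 5 platelet markers had negative differences, of -0.32 to -0.18, and 0 passed. Of 8 monocyte markers 2 were past the thresholds as higher and 3 as lower in the injured animals, and their mean level was 7.45 to 8.55 against 7.85 to 8.33 in Ctrl. The part of these shifts in the values of the proteases was not tested. The 6 markers of eosinophils and basophils had a mean level of 3.25 to 3.44 in the injured animals and 3.31 to 3.48 in Ctrl, under the array medians of 4.26 to 4.31 over genes.

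The other matrix metalloproteinases showed no call beside that of Mmp8. Of 20 listed, 16 were measured, and 0 passed the study's thresholds in any of the 4 comparisons, beside 1.65% of all genes as higher and 1.6% as lower between injured and Ctrl animals. Their median log2 difference between injured and Ctrl was 0.09, with a range of -0.15 to 0.53. Of 9 other ADAM proteases with a zinc site, 2 passed as higher in PT+HS than in Ctrl, beside 1.99% of all genes. Adam19, known from T cells and from the shedding of neuregulin, was higher by 1.75 (standard error 0.60), with 7.18, 7.0 and 7.80 in PT+HS against 5.29, 5.13 and 6.31 in Ctrl. In PT it had 6.97, 4.58 and 6.94. Between injured and Ctrl animals together it passed at 1.17 (standard error 0.52), where its other probe set, of lower mean level, differed by 0.36. Adam9, another sheddase, was higher in PT+HS by 0.77 (standard error 0.33), and Adam15 was lower in PT than in Ctrl, with a log2 difference of -0.74 (standard error 0.33), while its 3 other probe sets had the opposite sign between injured and Ctrl animals. Without PT replicate 2, Adam19 was also past the thresholds in PT against Ctrl, at 1.38, beside 0.59 with it, and Adam9 at 0.68 and Adam15 at -0.74 between injured and Ctrl animals, beside 0.60 and -0.61 with it. Of all genes 1.29% were called as lower in PT+HS and 2.26% in PT.

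Among the inhibitors, Timp2, which binds active matrix metalloproteinases, was higher in every injured animal. It had 7.16, 6.64 and 7.28 in PT+HS, 7.01, 6.76 and 6.76 in PT and 5.84, 6.23 and 6.11 in Ctrl, a log2 difference of 0.88 for both injured groups together (standard error 0.18, adjusted p = 0.222 from limma). It was the 1 of 8 measured inhibitors past the study's thresholds in this comparison, beside 1.65% of all genes as higher. Its 5 other probe sets, all of lower mean level, differed by 0.0035 to 0.63. Timp1, another of these inhibitors, differed by -0.01. Slpi, which blocks neutrophil elastase, had 10.36, 9.40 and 10.50 in PT+HS, 10.02, 8.87 and 9.76 in PT and 9.75, 9.43 and 9.54 in Ctrl and so, like Mmp9, straddled the Ctrl range. Of 6 genes for activators of the pro-enzymes and their receptors 0 passed between injured and Ctrl, among them Furin and Plaur, the receptor of urokinase, with log2 differences of 0.46 and 0.15. Without PT replicate 2, Furin, at 0.59, and the elastase inhibitor Serpinb1a, at -1.10, were past the thresholds in PT+HS against Ctrl. Pcsk5, a proprotein convertase, was lower in PT+HS than in Ctrl, with a log2 difference of -0.64 (standard error 0.20), at a mean level over all arrays of 3.43, under the array medians over genes. Between injured and Ctrl animals its other probe sets differed by -0.08 to 0.13, beside -0.48 for the chosen one.

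The genes of the specific granules, which hold collagenase, were split. Of 9 measured, 5 passed the study's thresholds as higher in the injured animals, beside 1.65% of all genes, with a median of 1.53 over the 9. Without PT replicate 2 it was 6, with Ngp, a granule protein, at 2.18 beside 1.70 with it. Lcn2, the lipocalin that in humans binds MMP-9, had 11.49, 9.13 and 10.64 in PT+HS, 10.57, 8.24 and 10.04 in PT and 9.09, 6.47 and 6.91 in Ctrl, a log2 difference of 2.53 (standard error 0.72). In both injured groups and in Ctrl replicate 2 was the lowest for Lcn2. Haptoglobin, Hp, was higher by 1.70 (standard error 0.28), Chil3, a chitinase-like protein, by 1.89 (standard error 0.63) and Olfm4, a glycoprotein of a subset of neutrophils, by 1.53 (standard error 0.44). Lactoferrin, Ltf, and Camp, the cathelicidin, differed by 0.23 and -0.01. Of 5 measured primary granule genes 0 passed between injured and Ctrl, with differences of 0.33 for Elane, 0.24 for Prtn3, 0.24 for Ctsg and 0.13 for Mpo. Ctsc, which processes their pro-enzymes, was past the thresholds in PT+HS against Ctrl at 0.71 (standard error 0.31).

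Of 10 measured genes of the membranes of gelatinase granules and secretory vesicles, 4 passed as higher in the injured animals, beside 1.65% of all genes, with a median of 0.12 over the 10. Fpr2, a receptor of formylated peptides, was higher by 2.28 (standard error 0.48), Fcgr3, a receptor of IgG, by 1.46 (standard error 0.25), Itgam, the integrin chain CD11b, by 0.99 (standard error 0.31) and Slc11a1, a metal ion transporter of phagosomes, by 0.81 (standard error 0.28). Of 11 measured genes for granule release, Rab27a, a small GTPase that docks granules, passed between injured and Ctrl at 1.32 (standard error 0.21), and the tyrosine kinase Fgr and the syntaxin Stx3 passed in PT+HS against Ctrl, each at 0.67, beside 1.99% of all genes as higher there. The other probe sets of Rab27a, all of lower mean level, differed by 0.09 to 0.28 between injured and Ctrl animals. For Stx3 the chosen probe set differed by 0.38 there and the others, also of lower mean level, by -0.21 to 0.07. Between PT+HS and PT 0 of the 11 passed, with a median difference of 0.41. All 11 differences were positive, and without PT replicate 2 it was 9 of 11, with a median of 0.15, while 49.3% of all genes had a positive difference. With all arrays, the 8 neutrophil, 8 monocyte, 5 platelet and 4 natural killer cell markers and the 5 primary granule genes were all positive too. Of the B-cell markers 2 of 4 were, of the T-cell markers 1 of 5 and of markers of red cell precursors 0 of 4. The shared sign was thus not particular to the release genes.

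Of 7 measured leukocyte proteins known as substrates of these or related proteases, 2 passed as higher and 1 as lower in the injured animals, beside 1.65% and 1.6% of all genes. Without PT replicate 2 it was 3 as higher, with the cytokine Il1b at 0.66 beside 0.34 with it. Il1r2, the decoy receptor of interleukin-1, which ADAM8 can shed, rose by 4.35 (standard error 0.47, adjusted p = 0.0316 from limma). Selplg, the selectin ligand PSGL-1, was higher by 0.59 (standard error 0.26), and Fcer2a, the IgE receptor CD23 of B cells, was lower, with a log2 difference of -2.24 (standard error 0.45). The 4 measured B-cell markers were lower too.

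**Figure D5:**
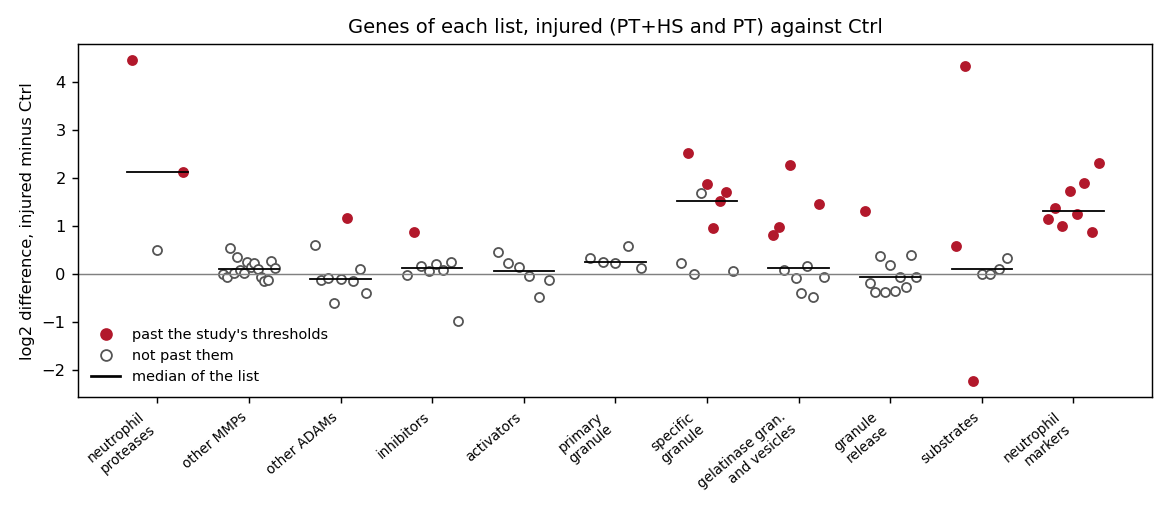
Log2 difference of injured (PT+HS and PT) minus Ctrl for each gene of 11 lists, with filled points past the study's thresholds, open points not past them, and a line at the median of each list. Mmp8 at 4.47 and Adam8 at 2.12 stand among the neutrophil proteases, where Mmp9 is at 0.49, and the 16 other metalloproteinases lie between -0.15 and 0.53.

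Genes were compared over the 9 arrays by the root mean square difference on the log2 scale, after each was centered on its own mean. The values were not scaled, so that the size of a change counts in this measure as well as its pattern. Mmp8 was closest to Il1r2 at 0.42, followed by the arginase Arg2 at 0.65 and the chemokine receptor Ccr1 at 0.76. Adam8 was closest to the receptor Cd300lf at 0.34, to Clec4d at 0.35 and to Cxcr2 at 0.36. Mmp9 was closest to the unnamed transcript B430306N03Rik at 0.25, to Slpi at 0.25 and to Pxn, the focal adhesion protein paxillin, at 0.29. Between the proteases themselves the difference was 1.90 for Mmp8 and Mmp9, 1.2 for Mmp8 and Adam8 and 0.89 for Mmp9 and Adam8. The 9 arrays fall into injured and Ctrl animals, which share the same processing, so that these values describe likeness in these arrays alone.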

How the data were processed

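Peripheral blood RNA of 9 mice was measured on 9 arrays, 1 per animal. The authors deposited log2 values from a robust multiarray average, in which arrays are corrected for background and brought to 1 distribution before the probes of a set are summed up, and which can compress large differences. No software version was found in these sources, and the deposited probe set names belong to another array type than the one in the methods. Values ranged from 1.74 to 14.7, without detection calls or depth, so that precision rests on the number of arrays. No batch is given in the sources used here.

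Of 45101 probe sets, 34958 with exactly 1 symbol were kept, 34754 of them with a current symbol by gene identifier, and the one with the highest mean was taken for each of 18194 genes, with no filter on low values. limma 3.58.1 in R 4.3.3 was fitted to all 9 arrays with a mean per group, with two-sided tests, a contrast for PT+HS against PT, for each injured group against Ctrl and for the mean of both against Ctrl, and Benjamini-Hochberg adjustment over all genes. Exact permutation tests were run in scipy 1.17.1. The fit was tested on simulated data. The members and lists were chosen with earlier results of these data known. Named were the measured members, of each list up to 4 genes past a threshold by smallest p, and the 3 closest genes of each member. Timp1, Furin, Plaur, Serpinb1a, Ngp, Il1b, Ltf, Camp, Elane, Prtn3, Ctsg and Mpo were named after their values were seen. The alternatives were the methods' t-test, other sets of arrays, genes or probe sets, a variance trend, array weights, other normalizations and a replicate block. Promoter sequences are from RefSeq, and those of Mmp8, Adam8 and Mmp25 were found among the 4 genes.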

Additional observations from a re-analysis of the deposited data

How the results depend on the processing

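The comparisons rest on 3 animals per group, and no measure of background is at hand for low values. Over the 20 alternatives of each result, Mmp8 and Adam8 kept a positive difference from Ctrl past the study's thresholds in all, and Mmp9 passed them in 3 between PT+HS and Ctrl, in 2 between injured and Ctrl, in 2 between PT+HS and PT and in 0 between PT and Ctrl. Where a call changed, the cause was not tested beyond the number of genes or arrays left in the fit.

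The adjusted call of Mmp8 between PT+HS and Ctrl, at a log2 difference of 4.75, was lost over every probe set with 1 symbol (adjusted p = 0.0729 from limma), over all probe sets (0.0929) and with the methods' t-test (0.575). Between injured and Ctrl animals, at 4.47, it was lost with the methods' t-test (0.256). That test put 0 genes past an adjusted p of 0.05 in any comparison, and at the study's thresholds 76, 542, 293 and 431 genes, for PT+HS against PT, for PT+HS and for PT against Ctrl and for both injured groups against Ctrl. Mmp8 and Adam8 were among them in each comparison with Ctrl.

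The call of Mmp8 between PT and Ctrl was gained at 4.18 among the genes above the median mean (adjusted p = 0.0245), with a variance trend (0.00355) and with the replicate number as a block (0.00125), at 4.30 with repeated quantile normalization (0.0330) and at 4.92 with array weights (0.000588). The genes called in these fits, among all tested, were 2, 3, 2, 3 and 448, in this order. Adam8 was called between PT+HS and Ctrl at 2.30 with only these 2 groups (adjusted p = 0.0197) and at 2.28 with array weights (0.0317), between PT and Ctrl at 2.26 with array weights (0.00773), and between injured and Ctrl at 2.27 with array weights (0.00552), at 2.12 with repeated quantile normalization (0.0497) and at 2.12 with a variance trend (0.0389). Where Adam8 was called, the genes called in all were 134, 40, 448, 240, 29 and 33, in this order. With array weights 86.9% of the PT mean came from PT replicate 1, and Mmp8 differed by -0.13 between PT+HS and PT.

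With 1 array left out, the log2 differences between PT+HS and PT ranged from 0.11 to 1.0 for Mmp8, 0.35 to 1.23 for Mmp9 and -0.11 to 0.63 for Adam8, with -0.09 for Adam8 without PT+HS replicate 3. Between PT+HS and Ctrl they ranged from 4.51 to 5.12, 0.58 to 1.36 and 1.86 to 2.58, between PT and Ctrl from 3.76 to 4.65, -0.27 to 0.50 and 1.67 to 2.41, and between injured and Ctrl from 4.22 to 4.76, 0.29 to 0.75 and 1.90 to 2.35, in the same order of genes. The shift of Mmp8 minus Mmp9 ranged from 3.73 to 4.19, that of Mmp8 minus Adam8 from 2.02 to 2.61 and that of Mmp9 minus Adam8 from -1.83 to -1.47. Relative to neutrophil markers the ranges were 2.77 to 3.17 for Mmp8, -1.05 to -0.87 for the chosen probe set of Mmp9 and 0.56 to 0.79 for Adam8. Of these exact tests, those without a Ctrl array could not fall under 0.0714.

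Over all genes, the deviations of same-numbered animals from their group means had correlations of -0.12 to 0.48 over 9 pairs of arrays. Their median was -0.005, beside -0.002 for other pairs, and 4 of 9 arrays correlated best with their own number. With 3 animals per group these values cannot decide whether the numbers mark a shared day or litter. Between PT+HS and Ctrl the standard error with the replicate block was 0.23 for Mmp8, 0.34 for Mmp9 and 0.38 for Adam8, beside 0.47, 0.46 and 0.44 without it. Beyond the gain named above, the replicate block changed no adjusted call of the 3 genes.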
